A study of Mus musculus with 10 samples.

Results

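The injury response described here is the difference between wild-type mouse cortical neurites 24 hours after they were scraped off and wild-type neurites that were left alone (naive). Its members were all genes with a deposited value of at least 1 in at least 2 of the 6 wild-type libraries, 3 injured and 3 naive, which gave 14510 genes of the 45195 in the table. Cortical neurons of C57BL/6 embryos at E16.5 (embryonic day) grew on membranes with 3 µm pores, so that axons and dendrites reached the underside while cell bodies stayed on top. Injured cultures had the underside wiped with a swab on day 7, and RNA was taken from all cultures on day 8, after the cell bodies had been wiped from the upper side. Every culture, controls included, carried an adeno-associated virus (AAV2) that expressed Cre recombinase from the ubiquitous CAG promoter, which has no floxed target in wild-type neurons. A second genotype, Cpeb1 flox/flox neurons on the same background with the same virus (2 naive and 2 injured libraries), entered the estimate of the spread and the test of the difference between genotypes. Because naive neurites were up to 8 days old and injured ones had regrown for 24 hours, injury and neurite age cannot be told apart. The labels do not say whether replicates came from separate cultures, so every p-value reflects the variation among these libraries alone, which may be technical.

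A cut axon seals its membrane and rebuilds a growth cone at the tip, while calcium entry and kinase signalling along the axon reach the nucleus and switch on transcription. The transcription factors induced without new protein synthesis, the immediate early genes, include Fos, Jun, Egr and Nr4a family members; later genes that accompany successful regrowth are called regeneration-associated genes. Neurites hold mRNAs that are transported from the cell body and translated locally, and their mRNA content need not follow that of the cell body.

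Values are taken as FPKM (fragments per kilobase of transcript per 1e6 fragments), scaled per library by the authors, so levels are per transcript length. The summed values of 5 of the wild-type libraries lay between 726420 and 865631, and injured replicate 3 stood apart with 1171842. That library also correlated least with the other 9 libraries on average (0.839, against 0.867 to 0.898 in the other wild-type libraries) and had the fewest genes with a value of at least 1 (12231, against 12611 to 13143). Read as FPKM, the values correspond to 20.7 to 25.7 in units of 1e6 fragments per wild-type library. The ribosomal RNA sequences AY036118 and CT010467.1 held 11.1 to 16.4% of the naive totals and 19.9 to 28.2% of the injured ones. The neuronal tubulin gene Tuba1a was at 10859, 9365 and 10035 in the naive libraries, and glial genes such as Gfap and Apoe were present in both groups.

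Injury changed 149 genes at an adjusted p under 0.05 (limma, Benjamini-Hochberg over 15712 genes tested). Of the 14510 members 2181 had an unadjusted p under 0.05 in limma, the background for such counts in the single lists below. Of the 149, 110 were higher after injury (0.758% of the 14510 genes) and 39 were lower (0.269%). Higher genes thus made up 73.8% of the calls, and 61.0% when the values were quantile normalized (100 of 164 calls). The median log2 fold change was 2.24 among the genes that rose and −2.37 among those that fell, against 0.02 over all members. None of the 149 had overlapping groups, while over all members 10.5% had all 3 injured values above all 3 naive values and 8.23% had them all below. The calls were made on the same values, so that separation is no further support for them. Of the called genes, 24 passed the filter only through the injured libraries and 15 only through the naive ones.

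How firmly single genes were called differed. Each of 28 genes passed whichever 1 of the 10 libraries was left out, among them Fos, Nr4a1, Junb, Gadd45g, Npas4, Jun, Klf5, Scg2, Sst, Gad1 and Penk. The other 121 lost the call without at least 1 library, with a largest adjusted p between 0.0535 and 0.213. Leaving out naive replicates 1, 2 and 3 ended 116, 107 and 101 of the calls, and leaving out injured replicates 1, 2 and 3 ended 100, 17 and 80. The total was 35, 44 and 58 calls without the naive replicates in turn, and 64, 311 and 84 without the injured ones. Injured replicate 2 held the lowest of the 3 injured values for 78 of the 110 genes that rose, and injured replicate 3 the highest for 75.

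**Figure D1:**
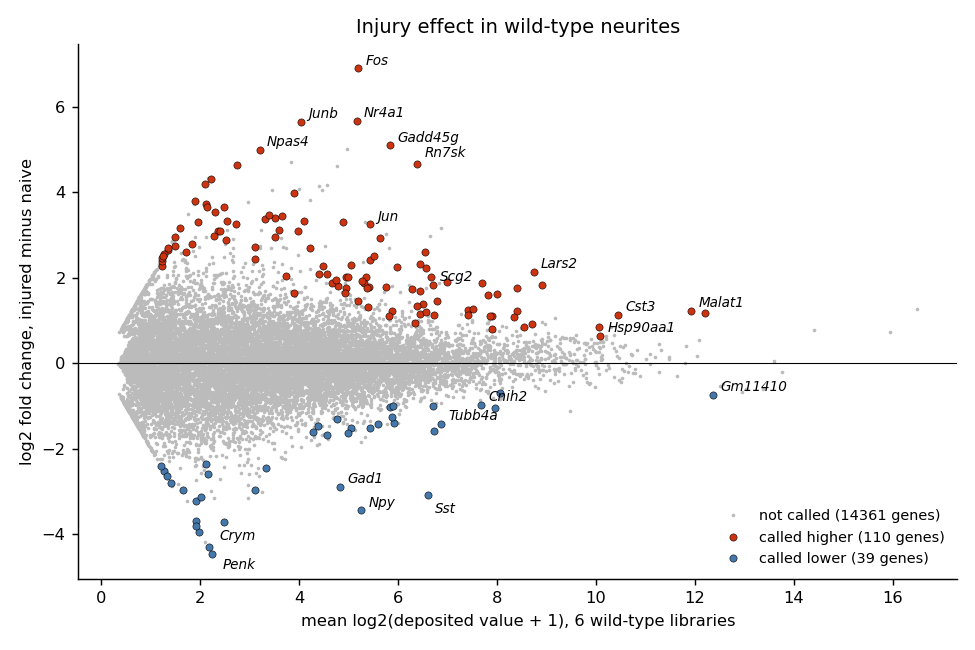
Mean level of each gene over the 6 wild-type libraries (x axis, log2(deposited value + 1)) against its log2 fold change after injury (y axis), 1 point per gene. The 110 genes called higher (red) and 39 called lower (blue) reach from Fos at 6.91 to Penk, which was listed at 0 in all 3 injured libraries.

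Immediate early transcription factors led the rises. Fos, which pairs with Jun proteins to form the AP-1 factor, was at 2.11, 1.23 and 4.34 in naive replicates 1 to 3 and at 478, 267 and 501 in injured replicates 1 to 3, the order used throughout. The log2 fold change came to 6.91 (SE 0.47), and the adjusted p in limma to 1.68e-05. The lowest injured value was far above the highest naive value. Nr4a1, an orphan nuclear receptor induced by calcium signals, was nearly even among naive libraries at 4.13, 3.74 and 4.13 and stood at 288, 182 and 319 after injury (log2 fold change 5.68 (SE 0.38), limma adjusted p = 1.68e-05). Junb, another AP-1 subunit, went from 1.95, 0.937 and 1.13 to 117, 72.3 and 178 (log2 fold change 5.65 (SE 0.45), limma adjusted p = 7.48e-05). Npas4, a neuronal factor induced by calcium entry, was at 1.02, 1.01 and 0.049 in naive and 63.8, 30.7 and 67.4 in injured neurites (log2 fold change 5.0 (SE 0.54), limma adjusted p = 0.00101). In all 4 genes injured replicate 2 was the lowest of the injured libraries and still above every naive library. Part of Junb's exons, 7.52%, overlap those of Prdx2, and reads over that part cannot be told apart without strand information.

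**Figure D2:**
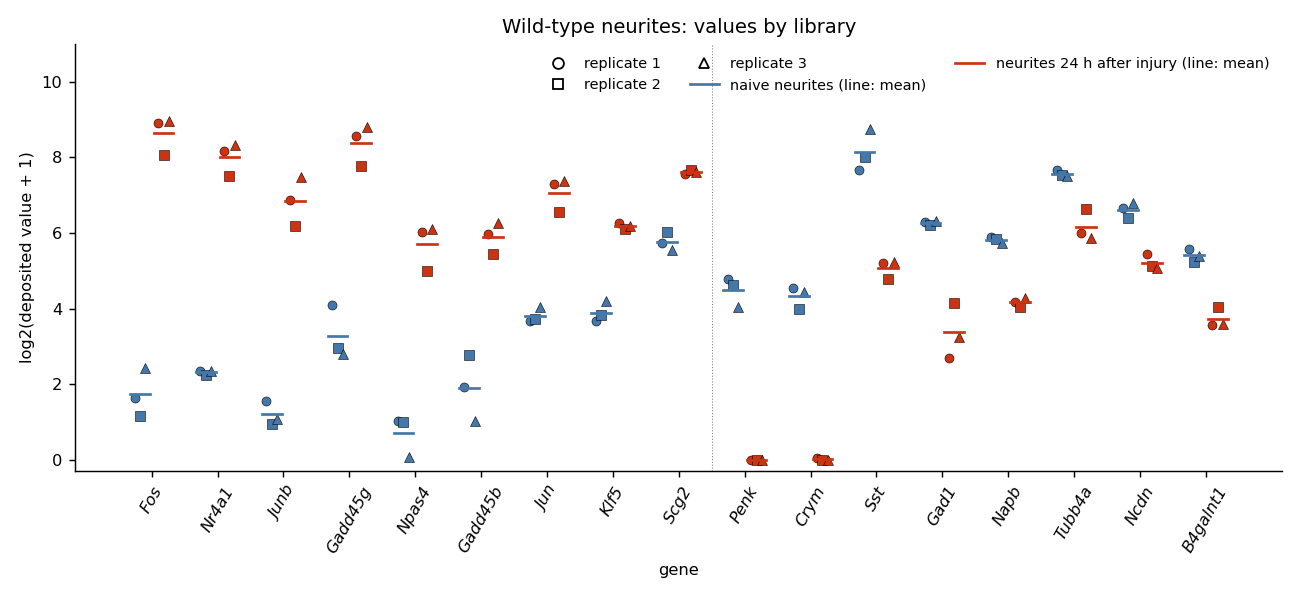
Log2(deposited value + 1) of 9 genes that rose (left of the dotted line) and 8 that fell in wild-type neurites, with 3 naive (blue) and 3 injured (red) libraries per gene, marker shape for the replicate and a line for the group mean. In none of the 17 genes do the groups overlap, and Penk lies at 0 in every injured library.

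Across the AP-1 family and related factors, 5 of the 13 measured genes rose and none fell, and all 13 fold changes were above 0 (median log2 fold change 1.82), where 0.758% of all members rose. Jun, the transcription factor most tied to axon regeneration, was at 11.6, 12.3 and 15.6 and then 155, 92.6 and 165 (log2 fold change 3.26 (SE 0.33), limma adjusted p = 0.000477). Fosb was at 0.02, 0.658 and 0 in naive and 16, 11.1 and 18.5 in injured libraries (limma adjusted p = 0.00935). Atf3, an injury-induced factor that promotes regrowth of peripheral axons, was at 2.89, 0 and 0 and then 12.1, 16.47 and 33.2 (limma adjusted p = 0.0225). Of the naive libraries, replicate 1 alone had an Atf3 value above 0. Of the 27 measured Egr, Nr4a, Klf and related genes 13 rose and none fell (median log2 fold change 2.29). All injured values lay above all naive ones in 24 of them (88.9%, against 10.5% of all members). In these lists 4 of the 13 and 8 of the 27 genes passed the filter only through injured libraries, as did 962 of all 14510 members. The shares for the lists and for all members are therefore not like for like.

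Among the zinc finger factors, Egr1 was at 4.38, 5.28 and 3.64 before and 60.7, 33.7 and 72.2 after injury (log2 fold change 3.32 (SE 0.46), limma adjusted p = 0.00514). Ier2, a nuclear protein of the early response, was at 12.5, 7.36 and 6.46 and 89.4, 54.9 and 163 (limma adjusted p = 0.00672), and Nr4a2, the nuclear receptor also called Nurr1, at 18.5, 16.1 and 16.1 and 166, 84.9 and 177 (limma adjusted p = 0.00248). Krüppel-like factors bind GC-rich promoters and include both promoters and brakes of axon growth. Klf5 rose from 11.7, 13.2 and 17.4 to 75.6, 68.3 and 72.2 with close values among the injured libraries (log2 fold change 2.29 (SE 0.27), limma adjusted p = 0.00169). Klf4, a brake on axon growth, was under 1 in every naive library and at 6.46, 12.8 and 35.8 after injury (limma adjusted p = 0.0435). Klf2 was at 0.527, 0.613 and 0 and 8.69, 6.82 and 9.73 (limma adjusted p = 0.0423). Egr2, Egr4, Csrnp1, Ier5l and Myc rose as well, with log2 fold changes of 2.69, 3.33, 3.53, 3.38 and 1.11. Nr4a3, named after its values were seen, missed the threshold with 21.2, 6.15 and 31.7 against 78.6, 69.7 and 124 and a limma adjusted p of 0.0559. Fos, Junb, Jun, Nr4a1, Nr4a2, Npas4, Klf5, Egr1 and Ier2 were the 9 of these 18 called factors that passed without any 1 library, and the other 9 reached a largest adjusted p of 0.0535 to 0.176. Without injured replicate 3, 4 AP-1 family genes and 8 Egr, Nr4a and Klf genes were called.

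Promoters of some genes with large rises are shown. Such genes are induced through short DNA elements, among them the cyclic AMP response element (CRE), which CREB binds. Each line gives the 250 bases upstream of a RefSeq transcription start (GRCm38.p6), read 5′ to 3′ on the gene's strand. Capitals mark TGACG, the CRE half-site, and GCGNGGGCG, an Egr site, on either strand; neither TGANTCA (AP-1) nor the CArG box was found in these 8 windows. The first 6 genes are the largest rises with a RefSeq promoter among called genes at or above the median level of all members. Pseudogenes and unnamed gene models were left out. The half-site was added after the sequences were seen. Scg2 and Sst were added to these 6 because both hold the full palindrome TGACGTCA.
Fos (chr12:85473640-85473889, plus strand): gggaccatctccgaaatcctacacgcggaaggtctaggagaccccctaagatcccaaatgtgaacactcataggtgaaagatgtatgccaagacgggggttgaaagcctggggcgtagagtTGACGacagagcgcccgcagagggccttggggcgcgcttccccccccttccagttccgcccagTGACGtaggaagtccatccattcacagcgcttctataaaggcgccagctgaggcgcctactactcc
Nr4a1 (chr15:101266596-101266845, plus strand): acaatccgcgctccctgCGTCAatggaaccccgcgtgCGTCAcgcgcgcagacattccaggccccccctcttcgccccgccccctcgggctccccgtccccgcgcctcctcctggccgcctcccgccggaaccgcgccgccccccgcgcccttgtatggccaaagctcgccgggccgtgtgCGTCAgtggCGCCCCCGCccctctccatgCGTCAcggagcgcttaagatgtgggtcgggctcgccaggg
Junb (chr8:84978749-84978998, minus strand): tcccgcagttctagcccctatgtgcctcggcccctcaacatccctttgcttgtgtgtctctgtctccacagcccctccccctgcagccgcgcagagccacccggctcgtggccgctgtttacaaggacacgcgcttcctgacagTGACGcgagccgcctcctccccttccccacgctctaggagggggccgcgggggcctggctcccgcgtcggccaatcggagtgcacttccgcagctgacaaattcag
Gadd45g (chr13:51846425-51846674, plus strand): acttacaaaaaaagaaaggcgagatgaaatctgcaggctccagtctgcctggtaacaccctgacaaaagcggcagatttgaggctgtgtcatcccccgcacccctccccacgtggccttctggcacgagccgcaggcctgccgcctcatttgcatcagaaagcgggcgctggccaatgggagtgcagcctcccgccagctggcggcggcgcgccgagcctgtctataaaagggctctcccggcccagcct
Npas4 (chr19:4989972-4990221, minus strand): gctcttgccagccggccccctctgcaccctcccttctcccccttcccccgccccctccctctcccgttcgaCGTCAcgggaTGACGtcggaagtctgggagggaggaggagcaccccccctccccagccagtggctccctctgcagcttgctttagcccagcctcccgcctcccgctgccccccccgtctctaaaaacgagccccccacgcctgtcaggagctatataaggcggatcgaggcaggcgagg
Gadd45b (chr10:80929841-80930090, plus strand): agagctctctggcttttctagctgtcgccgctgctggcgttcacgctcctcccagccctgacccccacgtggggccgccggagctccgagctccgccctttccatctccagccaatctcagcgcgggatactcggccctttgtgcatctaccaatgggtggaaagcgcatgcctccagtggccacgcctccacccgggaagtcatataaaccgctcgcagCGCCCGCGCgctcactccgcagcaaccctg
Scg2 (chr1:79440027-79440276, minus strand): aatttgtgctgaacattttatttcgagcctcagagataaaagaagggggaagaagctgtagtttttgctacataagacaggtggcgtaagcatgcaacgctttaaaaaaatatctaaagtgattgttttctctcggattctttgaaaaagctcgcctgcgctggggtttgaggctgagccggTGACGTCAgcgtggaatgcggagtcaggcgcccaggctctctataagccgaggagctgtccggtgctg
Sst (chr16:23890845-23891094, minus strand): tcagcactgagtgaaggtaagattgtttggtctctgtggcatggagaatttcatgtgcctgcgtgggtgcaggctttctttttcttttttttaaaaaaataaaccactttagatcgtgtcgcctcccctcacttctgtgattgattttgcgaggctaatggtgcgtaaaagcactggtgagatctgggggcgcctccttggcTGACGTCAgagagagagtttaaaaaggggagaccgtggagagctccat
The Nr4a1 window lies 12577 bases from the outermost start that GENCODE gives for the gene.

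Half-sites, counted by their first base, lay 129 and 66 bases upstream of the Fos start, 106 bases upstream of the Junb start and 179 and 169 bases upstream of the Npas4 start. Nr4a1 held 4 of them, at 233, 213, 69 and 40 bases, while Gadd45g and Gadd45b held none. The Egr site lay 60 bases upstream of the Nr4a1 start and 30 bases upstream of the Gadd45b start. The palindrome TGACGTCA lay in the windows of both Scg2, which rose, and Sst, which fell. A TGACG half-site was in the promoters of 38 of 80 genes that rose with a RefSeq promoter (47.5%), 13 of 30 that fell (43.3%) and 3193 of all 10286 members (31.0%). The full palindrome was in 7.5% of the genes that rose, 3.33% of those that fell and 3.20% of all members. For GCGNGGGCG the shares were 15, 20 and 10.8%, and for TGANTCA they were 6.25, 3.33 and 5.05%. A gene counted if any of its windows held the motif, and genes that fell had more windows each (1.8, against 1.24 for those that rose and 1.29 for all members).

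Genes that feed back on kinase signalling rose beside the factors. Of 19 measured MAP kinase phosphatases and feedback inhibitors, 3 rose and none fell (median log2 fold change 1.06). Dusp1, a phosphatase that switches off p38 and JNK, was at 17.6, 13.6 and 24.8 in naive and 140.0, 81.3 and 111 in injured neurites (limma adjusted p = 0.0141). Dusp14 was at 13.1, 21.3 and 9.22 and 52.6, 47.8 and 52.4 (limma adjusted p = 0.0189), and Dusp10 at 0, 0.856 and 0 and 20.5, 10.9 and 5.99 (limma adjusted p = 0.0343). Sik1, a kinase that restrains CREB coactivators, and Crem, a CREB relative with repressor forms, rose by log2 fold changes of 2.73 and 2.42. They were 2 of 17 measured genes of the CREB group, and its other 15 members did not pass. Gem and Rem2, small GTPases that dampen calcium channels, were at 2.2, 3.06 and 3.23 and 52.5, 21.5 and 56.9, and at 0, 6.4 and 3.2 and 20.6, 41.8 and 45.4 (limma adjusted p = 0.00726 and 0.0317). Gem kept its call without any 1 library; the largest adjusted p was 0.0951 for Rem2 and 0.0828 to 0.168 for the 5 phosphatase and CREB genes.

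Gadd45 genes encode small stress proteins that bind cell cycle and DNA demethylation partners. Gadd45g was at 16, 6.83 and 5.92 in naive and 378, 218 and 448 in injured libraries (log2 fold change 5.10 (SE 0.43), limma adjusted p = 0.000123), and Gadd45b at 2.78, 5.88 and 1.03 and 61.6, 42.7 and 76.4 (log2 fold change 3.99 (SE 0.53), limma adjusted p = 0.0043). Cdkn1a, the cell cycle inhibitor p21, was at 34.7, 45.5 and 46.3 and 164, 103 and 168 (limma adjusted p = 0.0154). All 23 measured genes of the Gadd45 and p53 target list had a fold change above 0, with a median of 0.86, but only those 3 passed. Of 31 measured effectors of neuronal activity 3 rose: Arc, a synaptic scaling protein whose mRNA travels into dendrites, was at 0.273, 1.5 and 0.679 and 17.3, 11.3 and 13.9 (limma adjusted p = 0.0328), and Sik1 and Cdkn1a are named above. Vgf, a secreted neurotrophin-induced protein, was at 4.51, 10.5 and 9.3 and 57.2, 25 and 42.3 without passing (limma adjusted p = 0.087). The largest adjusted p without 1 library was 0.149 for Arc and 0.0962 for Cdkn1a.

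Scg2, the granin secretogranin II that packs dense core vesicles, rose from 52.6, 64.7 and 45.6 to 188, 203 and 196 (log2 fold change 1.84 (SE 0.23), limma adjusted p = 0.00294), with the 3 injured values close together. Among the 18 measured granins and peptide-processing genes it was the only rise, and Rogdi was the only fall. Ass1, argininosuccinate synthase of the arginine pathway, was at 7.21, 6.49 and 5.38 and 45.3, 39.9 and 56.7 (limma adjusted p = 0.00487). C2cd4b was under 0.1 in every naive library and at 28.1, 20.2 and 13.5 after injury, though 47.2% of its exon sequence overlaps another gene. Nap1l5, a retrogene of the nucleosome assembly family, was at 49.8, 31.2 and 31.8 and 241, 149 and 339 (limma adjusted p = 0.00487). These last 3 genes were picked after their values were seen, as calls that held without any 1 library.

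Several noncoding RNAs of the nucleus were higher in injured neurites. Rn7sk, the 7SK RNA that holds the elongation factor P-TEFb inactive, was at 23.4, 21.5 and 7.3 in naive and 589, 263 and 481 in injured libraries (log2 fold change 4.67 (SE 0.55), limma adjusted p = 0.00176). It was the 1 gene called among 18 of the 7SK and P-TEFb list: its partner Larp7 was at 12.9, 12.5 and 13 and 29.4, 17.3 and 25.2, Hexim1 at 1.6, 2.68 and 2.56 and 6.8, 8.19 and 12.6, and the kinase Cdk9 at 28.9, 22 and 23.6 and 36.8, 42.9 and 48.6, with limma adjusted p of 0.278, 0.191 and 0.295. Malat1, a long noncoding RNA of nuclear speckles, was at 2603, 3440.1 and 1856 and 6633, 5818 and 5513 (log2 fold change 1.23 (SE 0.26), limma adjusted p = 0.0455, at most 0.191 without 1 library). Of the 12 measured nuclear long noncoding RNAs it alone was called, and the list's median was −0.23. Snora65, a small nucleolar RNA that lies wholly within Rpl12 exons, was listed at 0 in all naive libraries and at 21, 11.6 and 21.3 after injury, while Rpl12 rose from 28.3, 26 and 22.6 to 74.1, 54.6 and 69.4 (limma adjusted p = 0.00176 and 0.0353). The reads of Snora65 cannot be told from those of Rpl12, while the overlapped part of the Rpl12 exons is 5.17%. Rpl12 also has near-identical copies, which make its value uncertain. Rn7sk and Snora65 are not normally polyadenylated, and the libraries were primed with oligo(dT). The share of the ribosomal RNA sequences, given above, was higher in the same libraries, and its part in these values was not tested.

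Stress responses were followed in 3 lists. Of 28 measured antioxidant and metal response genes 5 rose and none fell, with a list median of 0.66. Mt1 and Mt2, metallothioneins that bind zinc, were at 212, 241 and 313 and 771, 561 and 1707, and at 58, 49.8 and 94.3 and 232, 152 and 409 (limma adjusted p = 0.0329 and 0.0353). Injured replicate 3 was the highest for both. Hmox1, which degrades haem, was at 12.8, 24.8 and 9.24 and 53.7, 42.4 and 102, and the peroxiredoxins Prdx6 and Prdx1 rose by log2 fold changes of 1.75 and 1.08. Without injured replicate 3, 2 of the 5 were called. Of 33 heat shock genes 3 rose: the inducible chaperone Hspa1a was at 1.26, 3.42 and 5.98 and 42.8, 14.5 and 65.3 (limma adjusted p = 0.0432), and its near-identical copy Hspa1b makes the value uncertain. Hsp90aa1, a cytosolic chaperone with little spread, was at 839, 893 and 862 and 1271, 1263 and 1548 (limma adjusted p = 0.0478), and Hspb6 at 10.01, 8.13 and 5.03 and 31.4, 24.4 and 21.1. A near-identical copy exists for Hsp90aa1 too. No heat shock gene was called without injured replicate 3, and the largest adjusted p of these 8 genes over the libraries left out was 0.065 to 0.199. None of 42 measured genes of the integrated stress and unfolded protein responses passed in limma, with 9 at an unadjusted p under 0.05; Ddit4, an mTOR inhibitor, came nearest at 23.2, 18.1 and 27.8 and 58.6, 51.7 and 69.2 (limma adjusted p = 0.0553), with Hspa5 at 94.6, 108 and 155 and 238, 187 and 203 and Ppp1r15a at 18.5, 1.98 and 11.1 and 68.9, 34.1 and 84.1.

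Genes tied to regrowth divided in direction. Of 37 measured regeneration-associated genes 5 rose (Atf3, Jun, Lgals1, Myc and Stmn4) and 1 fell (Npy), and the median was 0.20. Stmn4, a stathmin that regulates microtubule turnover, was at 267, 278 and 287 and 598, 436 and 470.3 (log2 fold change 0.84 (SE 0.16), limma adjusted p = 0.0279). It was the 1 call among 23 stathmins and growth cone proteins, of which 13 had all injured values below all naive values and 3 above. Over all members 8.23% had them all below and 10.5% all above, so the 3 above were close to the share over all members. Gap43, the growth cone protein most used as a marker of regrowth and named after its values were seen, was at 830.0, 720.4 and 799 and 634, 704 and 648 and differed by -0.24 (SE 0.17) on the log2 scale (limma adjusted p = 0.571). Dpysl5 and Crmp1, which bind tubulin in growth cones, were lower without passing, at 209, 186 and 233 against 116, 132 and 113 and at 858, 811 and 843 against 540.3, 663 and 548 (limma adjusted p = 0.0548 and 0.0967). Cebpb, a bZIP factor of the regeneration list, was at 11, 5.69 and 9.16 and 23.8, 28.7 and 44.3 (limma adjusted p = 0.0627). Jun alone of the 6 called regeneration-associated genes passed without any 1 library, and the others reached 0.116 to 0.187.

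Among 14 measured tubulins, Tubb4a, a neuronal beta-tubulin, fell from 201, 186 and 182 to 62.6, 98.1 and 56.9 (log2 fold change -1.41 (SE 0.21), limma adjusted p = 0.00846, at most 0.0615 without 1 library). Tuba1c rose from 1.26, 1.49 and 0.689 to 7.81, 11.8 and 33.6 (limma adjusted p = 0.00824), but it shares near-identical sequence with Tuba1a and Tuba1b, which carry far more reads. Tubb3, the neuron-specific beta-tubulin, was at 1056, 940.4 and 1161 and 476, 751 and 305 without passing (log2 fold change -1.13 (SE 0.26), limma adjusted p = 0.0617), and Tuba1a was at 6778, 7121 and 5239 after injury against the naive values given above (-0.67 (SE 0.16), limma adjusted p = 0.0775). The tubulin median was −0.47. None of 28 neurofilament and microtubule-associated genes passed in limma, with 7 at an unadjusted p under 0.05: Map2, the dendritic microtubule protein, was at 314, 344 and 311 and 201, 178 and 169.8 (limma adjusted p = 0.0593), while the neurofilament genes Nefl and Nefm were at 42.5, 31.5 and 34 and 91.9, 58.1 and 53.3, and at 9.84, 11.3 and 2.39 and 30.1, 31.1 and 20.5. Of 39 actin genes only the neuronal profilin Pfn2 was called, from 369, 313 and 334 to 200.4, 224 and 202 (limma adjusted p = 0.0478, at most 0.213 without 1 library). The ubiquitous profilin Pfn1 was at 263, 285 and 261 and 418, 361 and 494, in the other direction (limma adjusted p = 0.0839).

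**Figure D3:**
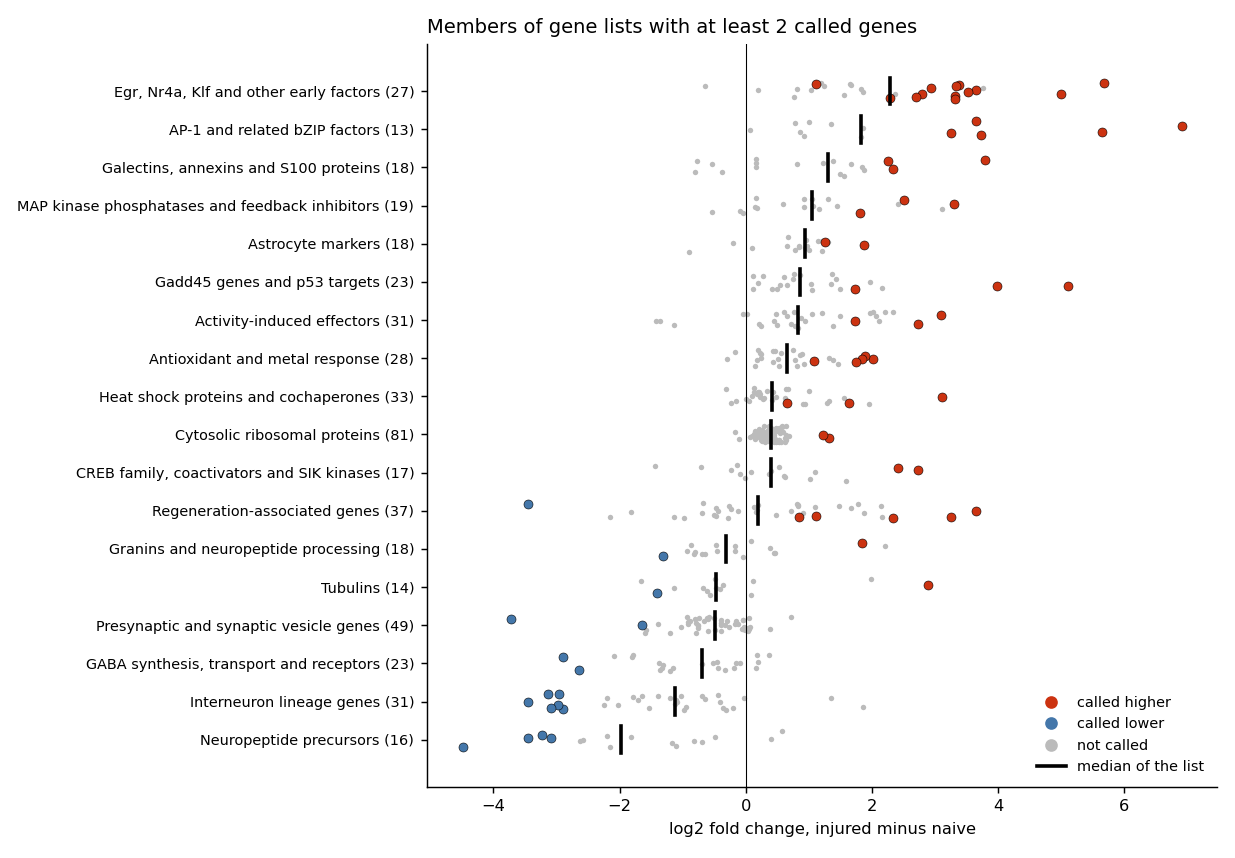
Log2 fold change after injury (x axis) of every measured member of the 18 gene lists with at least 2 called genes, with the number measured in brackets, a black bar for the list median, and red or blue points for called genes. Early transcription factors lie highest, with medians of 2.29 and 1.82, and neuropeptide precursors lowest, with a median of −1.98.

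Galectins, annexins and S100 proteins, small cytoplasmic or secreted proteins that many injured cells make, had a median of 1.31 over 18 measured genes, of which 3 rose. S100a6, a calcium-binding protein, was at 27.6, 20.9 and 37.1 and 158, 89.1 and 182 (log2 fold change 2.26 (SE 0.31), limma adjusted p = 0.00531). Lgals1, a galectin that supports peripheral axon regrowth, was at 23.7, 42.1 and 54.7 and 143, 136 and 384 (limma adjusted p = 0.0353). Lgals3, which activated glia also make, was at 0 in each naive library and at 5.29, 11.2 and 34.2 after injury (limma adjusted p = 0.0297). Injured replicate 3 held the highest value of all 3 genes. S100a6 kept its call without any 1 library, and the other 2 reached 0.174 and 0.122.

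Astrocyte and dividing cell markers were mostly higher as well. The summed level of the 20 astrocyte markers was 1725 to 2168 in naive and 2640 to 5474 in injured libraries, and 16 of the 18 measured had a fold change above 0. Glul, the enzyme that makes glutamine, rose from 142, 95.1 and 97.4 to 262, 207 and 337, and Sox9, a glial lineage factor, from 12, 11.3 and 13.9 to 45.9, 37.4 and 63.7 (limma adjusted p = 0.0264 and 0.0141). Aldoc, Apoe and Clu, abundant astrocyte genes, were higher without passing, with limma adjusted p of 0.0945, 0.134 and 0.122. Gfap, the astrocyte filament protein, was at 104, 111 and 179 and 187, 159 and 558 (limma adjusted p = 0.296). The median over the astrocyte markers, relative to the naive mean, was 0.65, 0.53 and 1.43 in injured replicates 1 to 3, and over 30 proliferation markers 0.89, 0.27 and 1.38. Vim, an intermediate filament of radial glia and of injured axons, rose from 67.6, 109 and 169 to 308, 319.6 and 644 (limma adjusted p = 0.0435). No proliferation marker passed in limma, 10 had an unadjusted p under 0.05, all of them higher, and Cdk1 came nearest at 45.3, 25.9 and 20.1 and 72.8, 82 and 135 (limma adjusted p = 0.0553). Sox9 remained called without injured replicate 3 and Glul and Vim did not. In RNA from a mixed culture, more cells of a type and more RNA per cell cannot be told apart, and the part of glia in the injury calls was not tested.

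Few markers of immune cells were measured. Of 20 microglia and macrophage markers 6 were, and the defining genes Cx3cr1, Aif1, Tmem119, C1qc and Trem2 were listed at 0 in all 6 libraries. The summed level of the list was 37.9 to 84.6 in naive and 39.5 to 132 in injured libraries. Lyz2, a lysozyme gene, and Cd68, a lysosomal protein, were measured and did not pass (limma adjusted p = 0.703 and 0.366). Of 26 cytokines and chemokines 12 were measured, and Tnf, Il6 and Il1a were listed at 0. Nfkbia, the inhibitor of NF-kappaB and itself its target, rose from 10.9, 32.8 and 19.9 to 86.3, 74.9 and 81.7 (limma adjusted p = 0.0183, at most 0.0768 without 1 library). None of 20 interferon response genes passed in limma, with 7 at an unadjusted p under 0.05; H2-K1, a class I antigen-presenting molecule, was at 12, 11 and 16.6 and 34.9, 41.8 and 37.8 (limma adjusted p = 0.0596). Endothelial, mural and fibroblast markers also gave no call in limma among 15 measured, with 4 at an unadjusted p under 0.05, all lower.

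**Figure D4:**
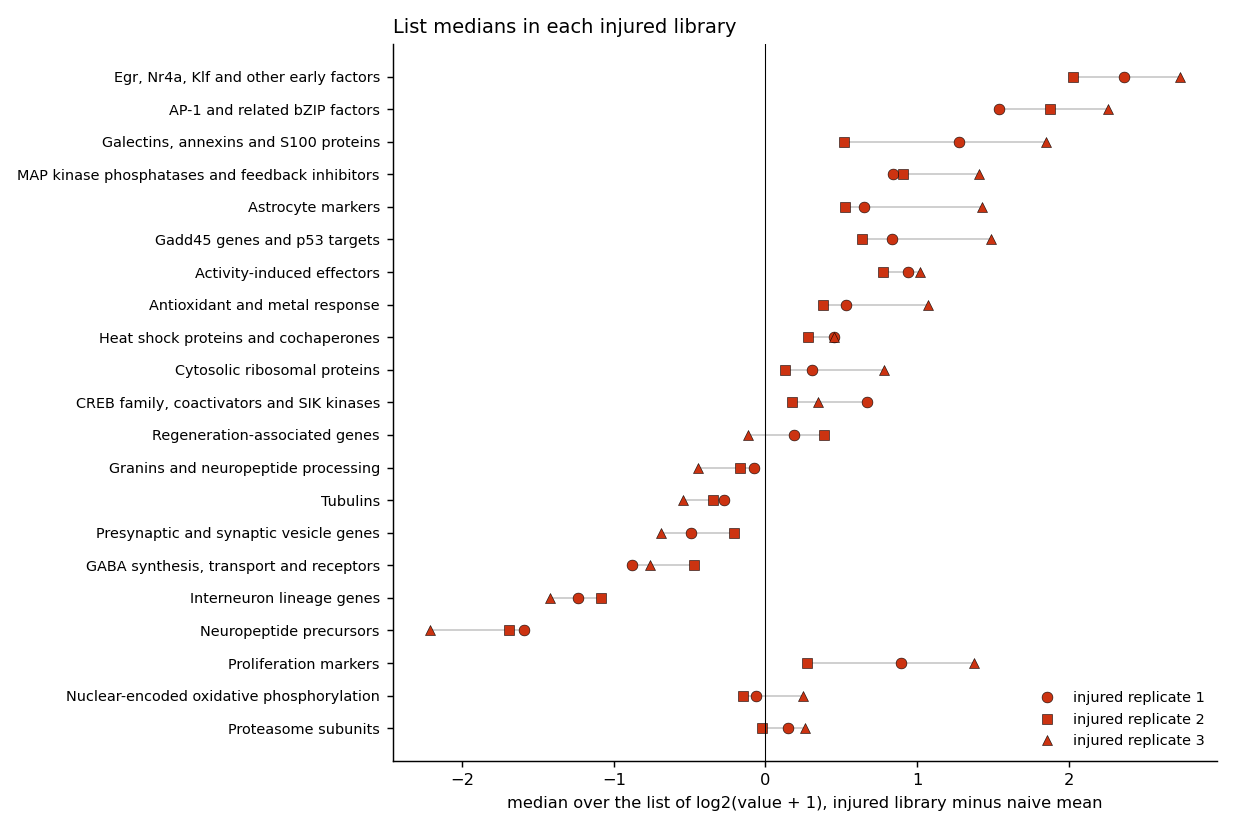
Median over each gene list of log2(value + 1) in an injured library minus the naive mean (x axis), for the 18 lists with at least 2 calls and 3 lists without a call, 1 marker per injured replicate. Astrocyte markers lie at 0.65, 0.53 and 1.43 and proliferation markers at 0.89, 0.27 and 1.38 in replicates 1 to 3, and neuropeptide precursors are below 0 in all 3.

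Genes of interneurons were among the largest falls. Neuropeptide precursors had the lowest median of all lists, −1.98 over 16 measured genes, of which 4 fell and none rose. Sst, the somatostatin precursor that marks a major class of cortical interneurons, was at 204, 255 and 434 in naive and 35.8, 26.5 and 36.3 in injured libraries (log2 fold change -3.08 (SE 0.31), limma adjusted p = 0.000477). Penk, the enkephalin precursor, was at 26.3, 23.8 and 15.5 in the naive group and at 0 in each injured library (limma adjusted p = 0.000437). Npy, which many Sst neurons also make, was at 89.8, 174 and 126 and 15.5, 31.6 and 1.91, and Cort, the cortistatin precursor, at 10.3, 8.18 and 14 and 0.874, 0 and 0 (limma adjusted p = 0.0435 and 0.0174). Sst and Penk passed without any 1 library, while Npy and Cort reached 0.187 and 0.0902. In the list 9 of the 16 genes passed the filter only through naive libraries, as did 1365 of all 14510 members. Its median is therefore not like for like with those of other lists.

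Interneuron lineage genes were lower too, but their list shares Sst and Npy with the peptides, so the lists are not independent. Of 31 measured genes 6 fell and none rose. The summed level of the list, Sst and Npy included, was 591 to 871 in naive and 155 to 194 in injured libraries. In 18 genes all injured values lay below all naive ones and in 2 above, against 8.23% and 10.5% of all members. Of the 31 genes, 13 passed the filter only through naive libraries, as did 1365 of all 14510 members. The shares for the list and for all members are therefore not like for like. Gad1, the enzyme that makes GABA, was even across naive libraries at 76.9, 72.9 and 78.6 and at 5.5, 16.9 and 8.59 after injury (log2 fold change -2.90 (SE 0.38), limma adjusted p = 0.00396). Dlx1 and Dlx5, homeobox factors of the ganglionic eminence that cortical interneurons keep, were at 31.3, 22.2 and 17.6 and 4.2, 2.46 and 0.604, and at 15.8, 8.28 and 9.92 and 0.171, 1.02 and 0.049 (limma adjusted p = 0.0141 and 0.0242). Dlx1as fell beside Dlx1, but 20.6% of its exon sequence overlaps Dlx1 on the other strand, and reads over that part cannot be told apart. Of the 6, Sst and Gad1 kept their call without any 1 library, and the largest adjusted p of the other 4 was 0.0964 to 0.187. Without injured replicate 3, 3 of the 6 lineage genes were called, and the list median moved from −1.12 to −0.99.

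Projection neuron genes, which mark the glutamatergic majority, gave no call in limma among 31 measured, with 7 at an unadjusted p under 0.05, and had a median of −0.35. Camk2a, a calcium-dependent kinase of excitatory neurons whose mRNA is transported into dendrites, was at 57.1, 50.9 and 109 and 22.8, 35.2 and 22.1 (limma adjusted p = 0.061). Neurod2, a factor of excitatory cortical neurons, was higher at 27.3, 21 and 27.6 and 55.9, 46 and 55.2 (limma adjusted p = 0.077). Crym, a thyroid hormone-binding protein, fell from 22.3, 14.8 and 20.6 to 0.04, 0 and 0 (limma adjusted p = 0.0043), and Tcerg1l from 10.8, 15.6 and 18.4 to 0 in every injured library (limma adjusted p = 0.00169). Asphd1 was at 11, 18.7 and 9.77 and 0, 0.123 and 0.037 (limma adjusted p = 0.00493). These 3 were picked after their values were seen, since their calls held without any 1 library. Whether fewer interneuron neurites or less RNA in each gives the lower values cannot be told apart.

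Few synaptic genes were called, and those were all lower. Of 49 measured presynaptic genes 2 fell and none rose, and the median was −0.48. In that list 20 genes had all injured values below all naive ones, where 8.23% of all members did. At an unadjusted p under 0.05 in limma, 18 of its genes were lower and none higher. Napb, a neuronal cofactor of NSF that disassembles SNARE complexes after vesicle fusion, was at 58.1, 56 and 52.5 and 17.2, 15.4 and 18.6 (log2 fold change -1.65 (SE 0.25), limma adjusted p = 0.00788). Syndig1, which regulates synapse maturation, was at 33.4, 19.1 and 11.2 and 2.2, 0.144 and 0 (limma adjusted p = 0.0141). Cplx1, a complexin that clamps vesicle fusion, and Syt1, the calcium sensor of release, were at 84.4, 102 and 106 against 54, 47.5 and 28.6 and at 66.4, 64.6 and 57 against 21.1, 40.9 and 14.3 without passing (limma adjusted p = 0.0514 and 0.0732). Cnih2, an AMPA receptor auxiliary subunit, fell from 279, 283 and 293 to 112, 157 and 172 (limma adjusted p = 0.0351), the 1 call of 45 postsynaptic genes, where Grin1, the obligatory NMDA receptor subunit, was at 27.6, 25.5 and 28.5 and 9.65, 17.4 and 7.5. None of 58 ion channel genes passed in limma, and 5 had an unadjusted p under 0.05, as did 2181 of all 14510 members.

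Further falls were in genes that share no list. Ncdn, the neurite protein neurochondrin, was at 101, 83 and 109.6 and 42.3, 34.2 and 32.6 (log2 fold change -1.40 (SE 0.21), limma adjusted p = 0.00732). B4galnt1, the enzyme that makes complex gangliosides, was at 47.1, 37 and 41 and 10.8, 15.3 and 11.1 (limma adjusted p = 0.0137), and Nos1ap, an adaptor of neuronal nitric oxide synthase, at 21.8, 23.7 and 21.8 and 2.37, 5.72 and 2.51 (limma adjusted p = 0.0161). Pcp4, a calmodulin-binding peptide, was at 249, 171 and 148 and 42.9, 72.7 and 70.0, and the G protein subunit Gng7 at 71.5, 74.6 and 70.3 and 26.1, 22 and 25.8 (limma adjusted p = 0.0161 and 0.0232). Jph3, which couples internal calcium stores to the cell membrane, was at 65.1, 43.6 and 58.4 and 15, 19.9 and 21.7 (limma adjusted p = 0.0189). The receptor Gpr12, the surface protein Cd47, which marks cells as self to phagocytes, and the spectrin-domain protein Sestd1 fell by 1.47, 1.43 and 1.60 on the log2 scale. Each of the 12 called genes of these 2 paragraphs lost the call without at least 1 library; Ncdn came closest to keeping it, with a largest adjusted p of 0.0543, and Napb reached 0.0574.

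Few genes for protein synthesis and energy supply passed. Of 81 cytosolic ribosomal protein genes 2 were called higher, Rpl12 and Rps27l, a p53-induced paralog of Rps27. Their fold changes nevertheless lay mostly on 1 side: 79 of the 81 were above 0, 37 had all injured values above all naive ones (45.7%, against 10.5% of all members), and 36 had an unadjusted p under 0.05, all higher. Over all members 7458 of 14510 fold changes were above 0. The median of the list was 0.40, against 0.02 over all members, and 0.31, 0.13 and 0.78 in injured replicates 1 to 3. It was 0.23 under quantile normalization, 0.33 under median-ratio scaling and 0.23 without injured replicate 3. In the libraries labelled Cpeb1 flox/flox it was −0.15, against −0.09 over all members. Rpl4 was at 615, 512 and 627 and 878, 739 and 1018 (limma adjusted p = 0.128). Among 52 translation factors only Eif1, which selects the start codon, was called, from 785, 802 and 809 to 1506, 1235 and 1580.2 (limma adjusted p = 0.0141, at most 0.0947 without 1 library). None of 76 nuclear genes of oxidative phosphorylation, 32 proteasome subunits or 36 kinesin, dynein and dynactin genes passed in limma, and the medians of the first 2 lists, both 0.04, turned negative under quantile and median-ratio scaling. At an unadjusted p under 0.05 in limma these 3 lists held 6, 2 and 6 genes, where all 14510 members held 2181. Axon guidance genes (46 measured), cell adhesion and matrix genes (41) and cholesterol and fatty acid genes (36) had no call in limma either, with 5, 10 and 4 at an unadjusted p under 0.05. In all, 18 of the 50 lists held no called gene, and 69 of the 149 called genes were in a list, as were 1399 of all 14510 members. The lists were chosen with earlier results of these data known, so the higher share among called genes is a description only.

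The lengths and levels of the called genes were set beside those of all members. Genes that rose were short: their median length from start to end was 7169.5 bases, against 21198.5 over all members and 21876 for genes that fell. They had a median of 5 exons, against 7 for genes that fell and 8 over all members. The exons of a gene, merged and summed, had a median total of 2537.5 bases against 4162.5 over all members. Their median naive level was 14.9, against 41.7 for genes that fell and 8.71 over all members. No test was made of these differences, and both the filter and a gene's chance of being called depend on its level.

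Neurites of Cpeb1 flox/flox neurons with the same virus gave fewer calls after the same injury. Cpeb1 itself was at 1.65 to 22.6 in the wild-type libraries and at 5.97 and 0.356 in the naive and 1.14 and 3.15 in the injured libraries labelled Cpeb1 flox/flox. The first of these was at the level of the wild-type naive libraries (5.86 to 7.16), and which of its exons are deleted is not given in the sources used here. With 2 libraries a group, 8 members were called in that genotype (0.0551%), 6 of them among the 149: Nr4a1, Junb, Gadd45g, Sst, Pcp4 and the pseudogene Gm11410. Of the 110 genes that rose in wild type 86 had a positive fold change in the libraries labelled Cpeb1 flox/flox, with a median of 0.60 against 2.24, and of the 39 that fell 31 had a negative one, with a median of −0.60 against −2.37. These genes were chosen for large changes in wild type, so a smaller median in the other genotype is a description only. Tested as an interaction, the injury effect differed between genotypes at no gene in limma (0 of 14510 members, 0%), although 918 members had an unadjusted p under 0.05. With no filter 1 gene was called, 2 with no mean-variance trend, and up to 2 when a library was left out.

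Single genes spread widely around these medians. Gadd45g, Gadd45b and Atf3 had log2 fold changes of 4.72, 3.57 and 3.42 in the libraries labelled Cpeb1 flox/flox, against 5.10, 3.99 and 3.66 in wild type. Sst, Gad1 and Npy had -2.97, -2.82 and -3.45, close to their wild-type values. Penk fell to 0 in wild type and had -0.16 in those libraries (interaction unadjusted p = 2.91e-05, limma adjusted p = 0.457), and Lgals3 had -0.01. Among genes at or above the median level of all members, leaving out unnamed gene models, the smallest interaction p-values were for Rogdi, whose effect was higher by 2.04 (SE 0.42) than in wild type (unadjusted p = 0.000291, limma adjusted p = 0.529), and Fos, whose log2 fold change there was 3.56, a difference from wild type of -3.35 (SE 0.74) (unadjusted p = 0.000608, limma adjusted p = 0.595). B4galnt1, Gpr12, Cdk9 and Lims1 also had small unadjusted p-values, with limma adjusted p from 0.595 to 0.698.

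**Figure D5:**
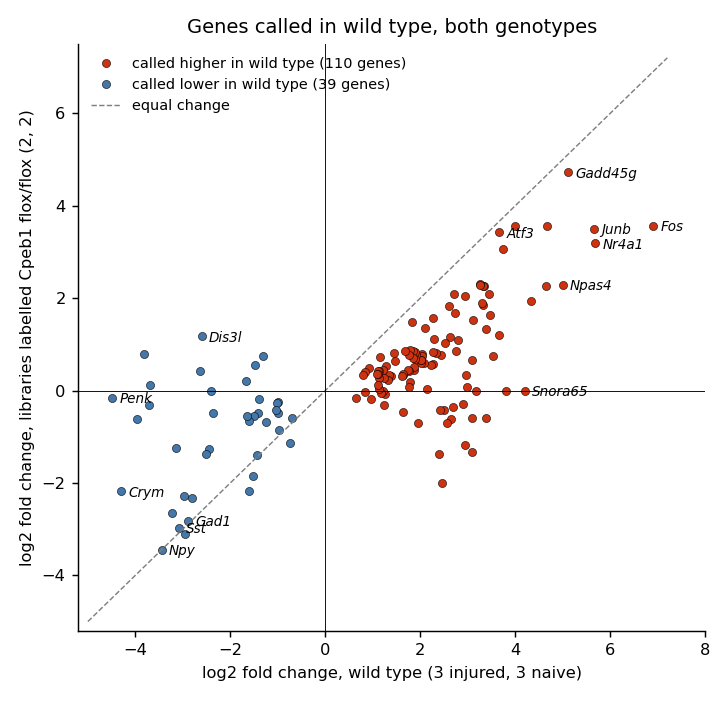
Log2 fold change after injury in wild type (x axis, 3 injured and 3 naive libraries) against that in libraries labelled Cpeb1 flox/flox (y axis, 2 and 2) for the 149 genes called in wild type, with a dashed line of equal change. Genes that rose in wild type have a median of 0.60 in the latter and genes that fell −0.60, and Gadd45g, Sst and Npy lie near the line.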

How the data were processed

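RNA of wild-type neurites was measured in 3 naive and 3 injured libraries, made with Smart-seq2 from 1 ng of RNA (14 cycles, then 500 pg of cDNA and 11 cycles), per the labels' protocols. The submitters' processing notes name mm10, STAR 2.4.2a and RSEM 1.2.21. The authors deposited 1 normalized value per gene and library, taken here as FPKM divided by a factor per library. TPM without mitochondrial genes fits the values equally well, and counts were not used, so no counting intervals are given. Were they TPM, the depths given would be void.

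Gene names and coordinates came from GENCODE M21 (44548 of 45195 IDs matched). Genes were tested in limma 3.58.1 under R 4.3.3, with a pseudocount of 1 before log2, a mean-variance trend and 4 group means over all 10 libraries. Benjamini-Hochberg adjustment (threshold 0.05) covered the 15712 genes that reached 1 in 2 or more libraries. Fold changes are on that log2(value + 1) scale, which understates the change of low genes. In simulated data of the wild-type comparison over 15712 genes, changes of 1, 2 and 3 (log2) were recovered in 7.46, 41.8 and 75.8% of cases. The simulation gave all libraries the same spread for a gene and changed only genes with a mean naive log2(value + 1) above 1. Estimated library weights, lower for noisier libraries, were 0.405 to 0.774 for wild-type injured and 1.32 to 1.50 for wild-type naive libraries. The recovery rates may therefore not hold for the real comparison. A search with blastn 2.17.0 marked near-identical copies.

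The members and the 50 gene lists were chosen with earlier results of these data known. Genes named were the 14 largest rises and falls among called genes at or above the median level with groups apart, all called members of each list or up to 4 by smallest p, and the 5 smallest interaction p in each direction; others are said to be chosen after their values were seen. Some genes of this rule are not reported here. Alternatives covered the pseudocount, filter, scaling, trend, library weights, replicate block, wild-type libraries alone and each library left out.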

Additional observations from a re-analysis of the deposited data

How the results depend on the processing

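Against 149 genes called for the injury effect, there were 24 with no filter on low values, 77 with no mean-variance trend, 90 with the 6 wild-type libraries only, and 42 with those 6 and no trend, a setting chosen after seeing the data. The count was 35 to 311 when 1 library was left out. A pseudocount of 0.1 or 5, a filter at 5, quantile or median-ratio scaling, library weights and adjustment over members alone gave 109 to 178. With no filter 12 of the 24 were higher. No called gene changed sign under any of the 23 alternatives, 14 were called under every one of them, and 86 were also called with the wild-type libraries only. The interaction gave 0 calls, 1 with no filter, 2 with no trend, and 0 to 2 with 1 library left out; the cause was not tested.

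A replicate block gave 73 calls over 10 libraries and 96 over the 6 wild-type libraries. The deviations of same-numbered libraries correlated at 0.033, −0.00079 and 0.020 and those of other pairs at −0.029 to 0.010; none reached 0.1, so the numbers were not taken as pairs.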

Other observations

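A further 9 called genes in no list, picked after their values were seen, act in chromatin, the nuclear envelope or RNA processing; how many such genes did not change was not counted. Brd2, a bromodomain protein that binds acetylated histones, was at 62.5, 65.3 and 67.6 in naive and 225, 147 and 179.7 in injured libraries (limma adjusted p = 0.0141), and Sin3b, a scaffold of histone deacetylase complexes, at 122, 111 and 110.1 and 215, 243 and 304 (limma adjusted p = 0.0141). The linker histone gene Hist1h1c was at 59.7, 65.8 and 48.3 and 126, 140.2 and 123, and Hist1h2bc at 157, 162 and 152 and 385, 276 and 374, the latter with near-identical copies (limma adjusted p = 0.0342 and 0.0189). Lmna, the nuclear envelope protein lamin A, was at 17.4, 14.4 and 17.3 and 50.4, 43.7 and 68 (limma adjusted p = 0.0258). The splicing genes Srsf2 and Sf3b1 and the cyclin Ccnl1, which acts in splicing, had log2 fold changes of 0.80, 0.95 and 1.45, and the nucleolar protein Nop56 1.28. All 9 lost the call without at least 1 library, with largest adjusted p between 0.0763 and 0.182. Exons of Srsf2 overlap those of 2 neighbouring genes over 25.3% of their length.

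Another 5 called genes were likewise picked after their values were seen and stand for no group. Cst3, the protease inhibitor cystatin C, was at 886, 867 and 1108 and 1932, 1524 and 3021, and the tetraspanins Cd63 and Cd9 at 114, 165 and 113 and 397, 246 and 625, and at 43.8, 68.5 and 56.2 and 143, 96.8 and 219 (limma adjusted p = 0.0399, 0.0281 and 0.0455). Injured replicate 3 was the highest in all 3, as it was for 75 of the 110 genes that rose. Cd63 has a near-identical copy. Hbegf, a ligand of the EGF receptor, was the 1 call among 36 growth factors and receptors, at 8.47, 11.7 and 7.65 and 53.3, 33.1 and 61.9 (limma adjusted p = 0.0155). Lars2, the mitochondrial leucyl-tRNA synthetase, was at 214, 159 and 243 and 666, 741 and 1475 in wild type (limma adjusted p = 0.0189) and had a log2 fold change of 0.03 in the libraries labelled Cpeb1 flox/flox. The wild-type libraries stood in the same order by the share of the ribosomal RNA sequences, 14.9, 11.1 and 16.4% and 19.9, 23.3 and 28.2%. That share was 16.9 and 12.6% in naive and 12.1 and 15.1% in injured libraries labelled Cpeb1 flox/flox. Its part in the Lars2 values was not tested. The largest adjusted p of these 5 with 1 library left out was 0.0902 for Hbegf and 0.205 for Cd9, the ends of their range.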
